A study of Homo sapiens with 4 samples.

Results

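The chromobox family is among the groups of genes that share the chromodomain, a fold that reads methylated lysines on histone H3 tails. It was examined in SK-BR-3, a human cell line from a breast carcinoma in which HER2 is amplified and p53 carries a missense mutation. The members were the probe sets annotated to a single one of CBX1, CBX2, CBX3, CBX5, CBX6, CBX7 and CBX8. CBX1 had been picked because it was higher with Pontin siRNA in these same arrays, so its values in that comparison are given as a description. Of the 7 genes, 6 had a probe set of their own, out of 19775 genes so represented, and CBX8 was not analysed here. These genes had 18 probe sets, namely 6 for CBX5, 4 each for CBX3 and CBX2, 2 for CBX6 and 1 each for CBX1 and CBX7.

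All cells were SK-BR-3 selected with puromycin after transfection of an shRNA vector, and RNA was taken 24 h after siRNA transfection. The groups were p53 shRNA with Pontin siRNA, Pontin siRNA with control shRNA, p53 shRNA, and control shRNA, with 1 Affymetrix array each. The labels use control shRNA and empty vector for the same arm, and title the arms without Pontin siRNA "sicon", which they do not spell out. Whether the arms of a background shared one selected culture is not given. Pontin, the product of RUVBL1, is an ATPase found in chromatin remodellers and in machinery that assembles protein complexes.

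HP1 proteins, encoded by CBX5 (HP1 alpha), CBX1 (HP1 beta) and CBX3 (HP1 gamma), bind methylated histone H3 of heterochromatin through the chromodomain and recruit partners through a second, chromoshadow domain. CBX2, CBX6, CBX7 and CBX8 are homologues of Drosophila Polycomb. They tie Polycomb repressive complex 1 (PRC1) to histone H3 methylated by the related complex PRC2, and one complex holds one of them at a time.

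The values are MAS5 signals, a linear intensity per probe set scaled by the authors to a common level on each array. The 4 arrays had median signals of 19.6 with both knockdowns and of 15.9 to 16.5 on the other arrays. The array with both knockdowns also stood apart on the 18 spiked-in controls of hybridization, each higher than on the control array, by 1.42-fold on average. It enters 1 of the 2 matched pairs of each knockdown, and its part in the results was not tested. RUVBL1 had a signal of 127.4 with Pontin siRNA against 477.7 without it in control shRNA cells, and of 65.8 against 398.2 in p53 shRNA cells. RUVBL2, which encodes its partner Reptin and is not the siRNA's target, was at 0.19 and 0.08 in log2 ratio on its brightest probe set. A second bright RUVBL2 probe set gave 0.22 and 0.31. The transcript targeted by the p53 shRNA was not analysed here. Of 7 markers of HER2-amplified luminal cells, 6 were bright on the arrays, with ERBB2 between 4823 and 5581. The exception was CDH1, the E-cadherin gene, at 1.8 to 13.0. Among fibroblast markers COL1A1 lay between 152.9 and 175.9, while COL1A2, COL3A1, VIM and DCN were below the filter on signal. The immune markers PTPRC, CD3E and CD14 were below it too. Of the endothelial markers, VWF was below it, PECAM1 lay between 27.5 and 40.7 and CDH5 between 67.9 and 105.8.

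No group had a replicate, so there was no test. Each knockdown was read as the log2 ratio of signals in 2 matched pairs. A gene was called where both pairs were at least 1.5-fold apart in the same direction, a log2 ratio of 0.58 or more. Each gene was represented by its brightest probe set (mean of log2 signals over the arrays), and 12066 genes whose mean reached the probe sets' median (15.3) were kept. The 7744 genes reaching the 75th percentile (110.3) are called bright. All 6 measured chromobox genes were bright on their representing probe set. Of their 18 probe sets 12 were bright, 16 passed the filter, and 1 each of CBX5 and CBX2 did not.

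CBX1 was higher with Pontin siRNA by nearly the same amount in both backgrounds and hardly differed with p53 shRNA. In control shRNA cells its signal was 947.4 with Pontin siRNA and 567.5 without it, 1.67-fold higher. In p53 shRNA cells it was 908.3 with Pontin siRNA and 549.3 without it, 1.65-fold higher. The arrays with Pontin siRNA were thus the higher pair and the arrays without it the lower pair, and they did not overlap. A culture's signal averages over its cells, so more cells with the transcript and more RNA per cell cannot be told apart here. These values come from the single CBX1 probe set, 201518_at, so no other probe set of the gene could be set beside it.

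The log2 ratios of CBX1 with Pontin siRNA were 0.74 and 0.73. CBX1 was the only chromobox gene called higher, 1 of 6, and 1.16% of genes kept (140) were called higher. None was called lower, against 1.24% of genes kept (150). With each array centred on its median signal, 55 genes were called higher and 246 lower. Since this contrast chose CBX1, nothing is read from the 1 of 6. The rank and share of CBX1 among bright genes that follow are a description for the same reason. Only 14 bright genes were called higher. By the smaller of its 2 ratios CBX1 was the fifth of them. Its mean ratio of 0.73 lay above that of 99.8% of bright genes, whose central 95% ran from -0.52 to 0.41. Under that centring CBX1 had ratios of 0.69 and 0.43 and was no longer called. It moved the median of all genes kept to -0.04 and -0.29 in the same pairs.

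**Figure D1:**
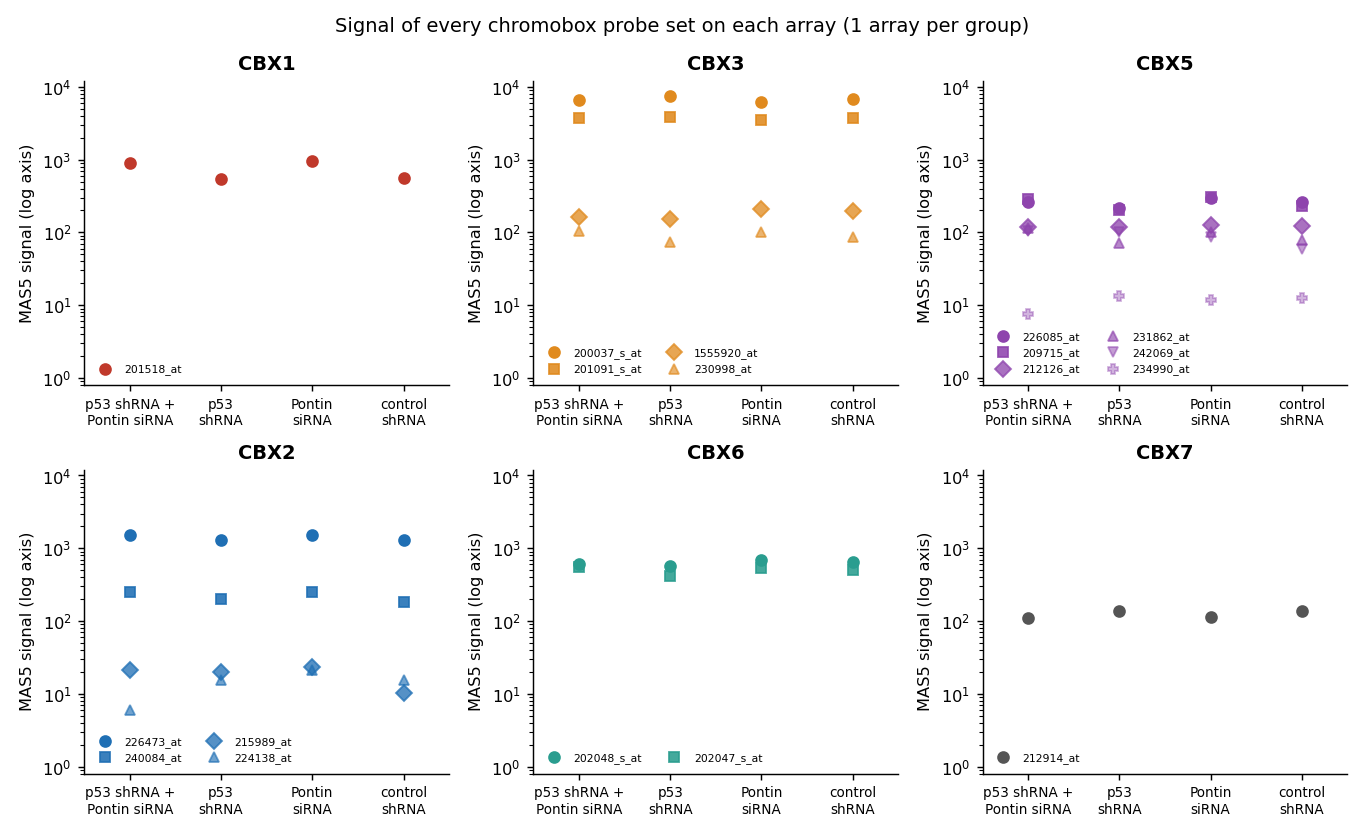
MAS5 signal (log axis) of all 18 chromobox probe sets, 1 panel per gene and 1 point per probe set and array, with 1 array per group and no error bars. CBX1 lies at 908.3 and 947.4 on the arrays with Pontin siRNA and at 549.3 and 567.5 on the others, while the brightest CBX3 probe set stays between 6224 and 7390.

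On the p53 side, which did not choose CBX1, its signal was 549.3 with p53 shRNA against 567.5 with control shRNA, and in Pontin siRNA cells 908.3 against 947.4. The log2 ratios were -0.05 and -0.06, and 39.9% of bright genes had a lower mean. With both knockdowns over the control the ratio was 0.68, and the departure from the sum of the single effects was -0.01. For bright genes the central 95% of departures ran from -0.48 to 0.46.

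CBX5, the HP1 alpha gene, was higher with Pontin siRNA on most of its probe sets but passed the fold threshold in both pairs on none. On 209715_at the signal was 310.2 with Pontin siRNA and 227.8 without it in control shRNA cells, and 284.1 against 205.2 in p53 shRNA cells. Both arrays with Pontin siRNA were above both arrays without it, with log2 ratios of 0.45 and 0.47. By the smaller of its 2 ratios, this was the nearest of the member probe sets outside the call, with CBX1 the only one inside.

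The brightest CBX5 probe set, 226085_at, had 298.6 with Pontin siRNA against 260.5 in control shRNA cells and 264.7 against 215.2 in p53 shRNA cells. Its ratios of 0.20 and 0.30 were smaller, and the arrays with and without Pontin siRNA did not overlap. On 231862_at the ratios were 0.39 and 0.72, from signals of 101.5 against 77.5 and 115.9 against 70.6. The probe set 212126_at, with signals from 117.6 to 126.3, gave 0.03 and -0.01 and so did not share this pattern. On 242069_at the ratios were 0.52 and 0.07, and there the control array stood apart, at 59.6 against 85.4 to 105.5 on the others. The dim probe set 234990_at, at 7.6 to 13.2, gave -0.08 and -0.80. In all, 4 of the 6 CBX5 probe sets were above 0 in both Pontin pairs.

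CBX3, the HP1 gamma gene, was slightly lower with Pontin siRNA on its brighter probe sets and slightly higher on the others. On 200037_s_at the signal was 6224 with Pontin siRNA against 6858 in control shRNA cells and 6517 against 7390 in p53 shRNA cells. The log2 ratios were -0.14 and -0.18, and both arrays with Pontin siRNA were below both without it. A second bright probe set, 201091_s_at, gave -0.09 and -0.04. In contrast, 1555920_at gave 0.10 and 0.09 and the dimmer 230998_at 0.22 and 0.50, so the direction for CBX3 depended on the probe set.

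Promoter sequences of CBX5, CBX3 and CBX7 are shown because these genes lay on different sides of 0 with Pontin siRNA. Each runs over the 250 bases before the annotated start, on the gene's strand, from RefSeq on GRCh38.p14. For CBX5, with 3 annotated starts, the outermost is shown. CBX5 lies on the minus strand at chr12:54280123-54280372, CBX3 on the plus strand at chr7:26201193-26201442 and CBX7 on the minus strand at chr22:39152681-39152930. Capitals mark exact matches on either strand to the GC box written GGGCGG, the CCAAT box, the E-box written CACGTG or the palindromic NRF1 motif. The E2F motif was searched as TTTCCCGC, with TTTCGCGC as the next form, TTTGCCGC as another and TTTGGCGC as the last.
CBX5: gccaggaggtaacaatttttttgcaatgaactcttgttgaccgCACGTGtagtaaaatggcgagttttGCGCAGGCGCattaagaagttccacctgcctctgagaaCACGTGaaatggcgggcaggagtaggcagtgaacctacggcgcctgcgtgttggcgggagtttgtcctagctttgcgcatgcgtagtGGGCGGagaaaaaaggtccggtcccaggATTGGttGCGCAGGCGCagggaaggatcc
CBX3: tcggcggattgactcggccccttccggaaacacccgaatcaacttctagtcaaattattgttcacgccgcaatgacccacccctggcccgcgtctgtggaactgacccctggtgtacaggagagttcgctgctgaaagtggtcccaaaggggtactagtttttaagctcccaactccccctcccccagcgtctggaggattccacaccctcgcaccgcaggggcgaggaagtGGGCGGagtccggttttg
CBX7: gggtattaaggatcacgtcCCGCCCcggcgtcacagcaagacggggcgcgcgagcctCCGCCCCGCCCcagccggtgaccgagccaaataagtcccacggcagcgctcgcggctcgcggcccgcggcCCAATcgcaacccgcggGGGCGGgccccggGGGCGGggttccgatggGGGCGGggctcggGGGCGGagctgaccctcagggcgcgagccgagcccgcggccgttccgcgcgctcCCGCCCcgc

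The CBX5 window held 2 E-boxes, 2 NRF1 matches, 1 GC box and 1 CCAAT box. The windows of the other 2 CBX5 starts each held 1 match, a CCAAT box. The CBX3 window held 1 GC box, and the CBX7 window 8 GC boxes, 2 of which overlap, and 1 CCAAT box. No E2F match was in these windows. Over 35116 RefSeq promoter windows of this length, 42.6% held a GC box, 32.0% a CCAAT box, 6.35% an E-box, 5.08% an NRF1 match and 2.79% an E2F match. These matches describe letters and are not binding sites. The CBX1 window lies inside the annotated gene and is not shown, and it held none of these motifs.

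Among the Polycomb chromobox genes, CBX2 was modestly higher with Pontin siRNA. On its brightest probe set, 226473_at, the signal was 1506 with Pontin siRNA against 1316 in control shRNA cells and 1535 against 1300 in p53 shRNA cells. Both arrays with Pontin siRNA were above both without it, with log2 ratios of 0.19 and 0.24. On 240084_at, where the same split held, the ratios were 0.46 and 0.29, from 253.6 against 184.3 and 247.4 against 201.9. The other CBX2 probe sets were dim. The ratios of 1.18 and 0.10 on 215989_at arose with the control array at 10.4 and the other arrays at 20.2 to 23.5. The probe set 224138_at, below the filter, was at 6.0 with both knockdowns and at 15.5 to 21.2 elsewhere.

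CBX7, which encodes a Polycomb reader, was lower with Pontin siRNA on its only probe set. Its signal was 114.4 with Pontin siRNA against 139.3 in control shRNA cells and 111.0 against 137.5 in p53 shRNA cells. The arrays with Pontin siRNA were both below the arrays without it, with log2 ratios of -0.28 and -0.31, short of the fold threshold. CBX6, another Polycomb homologue, gave 0.09 and 0.09 on 202048_s_at and 0.11 and 0.40 on 202047_s_at. On 202048_s_at its signals were 693.9 with Pontin siRNA against 653.2 in control shRNA cells and 612.5 against 577.3 in p53 shRNA cells, so the 2 sets of arrays overlapped.

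Over all 18 member probe sets, 12 were above 0 in both Pontin pairs, 4 below 0 in both and 2 of opposite sign. Over all 41091 probe sets with 1 symbol the shares above and below 0 in both pairs were 32.9% and 24.3%. The HP1 genes had 7 of 11 above 0 in both pairs and the Polycomb genes 5 of 7. Probe sets of one gene measure transcripts of that gene on the same arrays and do not count as separate observations. At the level of genes, 4 of 6 were above 0 in both pairs (CBX1, CBX5, CBX2 and CBX6) and 2 below (CBX3 and CBX7), against 33.9% and 32.0% of genes kept. CBX1 was chosen from this contrast, so the count supports nothing. Under median centring 2 of 6 were above 0 in both pairs, with CBX2 at 0.15 and -0.05 and CBX6 at 0.04 and -0.21, and CBX5 barely so at 0.15 and 0.01.

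**Figure D2:**
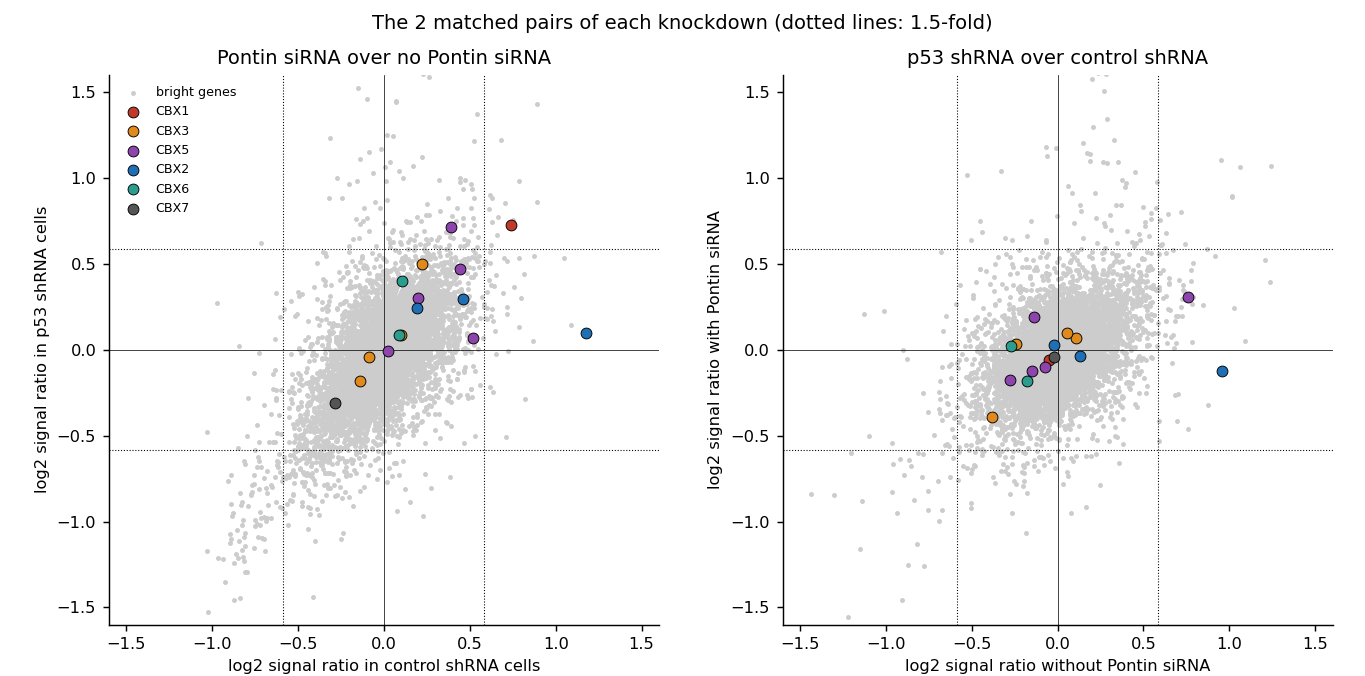
Log2 signal ratios in the 2 matched pairs of each knockdown, with bright genes in grey, the 16 chromobox probe sets that passed the filter in colour and dotted lines at 1.5-fold. The axes end at 1.6, which leaves 6 bright genes out of the Pontin panel and 14 out of the p53 panel. CBX1 is the only member beyond both lines with Pontin siRNA, at 0.74 and 0.73, and no member is beyond both with p53 shRNA.

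With p53 shRNA no chromobox gene was called, 0 of 6, while 1.38% of genes kept (167) were called higher and 0.862% (104) lower. Median centring gave 97 higher and 183 lower. CBX5 was lower on its 3 bright probe sets, with log2 ratios of -0.28 and -0.17 on 226085_at, -0.15 and -0.13 on 209715_at and -0.07 and -0.10 on 212126_at. On 226085_at the signal was 215.2 with p53 shRNA against 260.5 with control shRNA, and 264.7 against 298.6 in Pontin siRNA cells, so the 2 sets of arrays overlapped. The dimmer 242069_at went the other way, with 0.76 and 0.30.

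CBX3 was at 0.11 and 0.07 with p53 shRNA on 200037_s_at and at 0.05 and 0.10 on 201091_s_at, but at -0.38 and -0.39 on 1555920_at. On that probe set the signal was 151.8 with p53 shRNA against 197.4 with control shRNA, and in Pontin siRNA cells 161.2 against 211.9. Both arrays with p53 shRNA lay below both arrays without it. This was the lowest mean p53 ratio among bright member probe sets, at -0.39, just outside the central 95% of bright probe sets, -0.38 to 0.39. The brighter CBX3 probe sets had the opposite sign.

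CBX6 was at -0.18 and -0.18 with p53 shRNA on 202048_s_at and at -0.27 and 0.02 on 202047_s_at. On the first, the signal was 577.3 with p53 shRNA against 653.2 with control shRNA, and 612.5 against 693.9 in Pontin siRNA cells, with no overlap between the sets of arrays. CBX2, at -0.02 and 0.03 on its brightest probe set, and CBX7, at -0.02 and -0.04, hardly differed. By gene, 1 of 6 was above 0 in both p53 pairs, 4 were below 0 in both and CBX2 had opposite signs, where 30.6% of genes kept were above and 32.2% below. The 1 above 0 was CBX3, whose mean turned to -0.05 under median centring. The median of the mean ratios was -0.04, against 0.00 for all genes kept (-0.0024).

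In cells with both knockdowns over the control, which reuses arrays of the pairs above, 1 of 6 chromobox genes was at least 1.5-fold higher, where 7.49% of genes kept were. None was that much lower, where 5.74% were. The 1 higher was CBX1, and its ratio here includes the Pontin ratio that chose it, so nothing is read from that count. These shares are over genes kept. All 6 were bright, and for bright genes the central range of this ratio was -0.67 to 0.56. Under median centring the call passed to another gene and direction, with CBX1 at 0.38 and CBX7 at -0.63, so that 0 were higher and 1 lower. After CBX1, at 0.68, came CBX2 at 0.22, CBX5 at 0.02, CBX3 at -0.07, CBX6 at -0.09 and CBX7 at -0.33. In CBX7 the signal was 111.0 with both knockdowns against 139.3 in the control. Departures from additivity were small on the representing probe sets, from -0.04 for CBX3 to 0.10 for CBX5. None of the 6 departed by 1.5-fold, while 13.1% of genes kept did. For bright genes the central range of departures given above, -0.48 to 0.46, lay within that fold, so nothing is read from this count. With all probe sets of a gene averaged, CBX2 alone departed by at least 1.5-fold, at -0.76. That mean includes its 2 dim probe sets, with departures of -1.08 and -1.82.

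**Figure D3:**
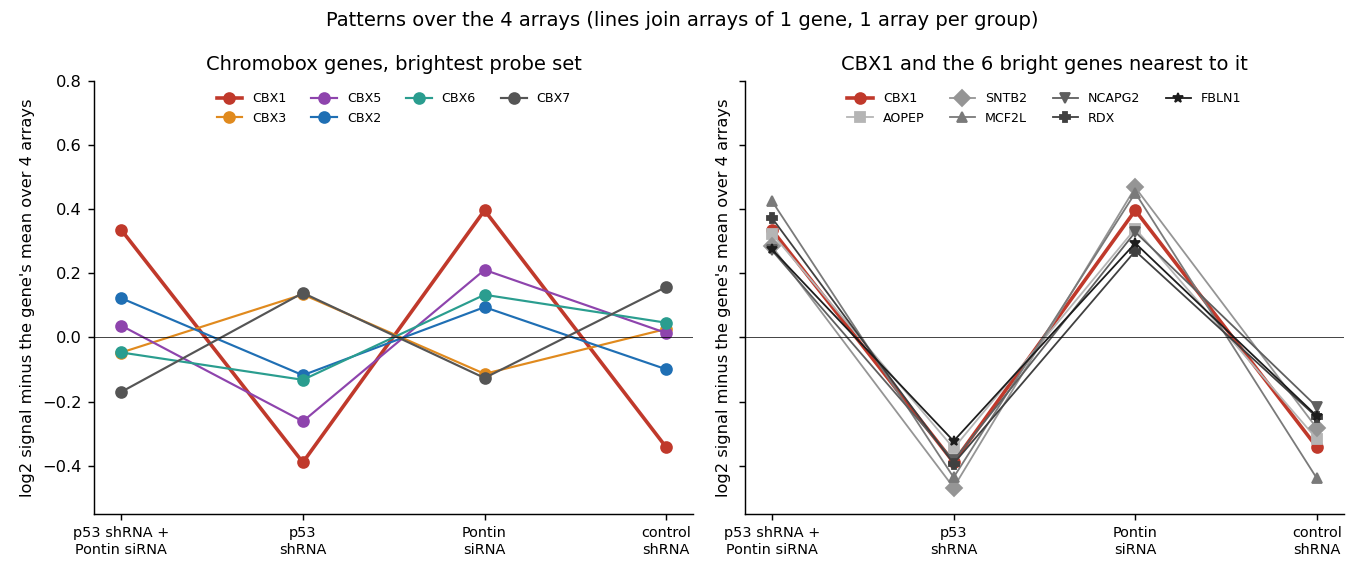
Log2 signal minus the gene's own mean over the 4 arrays, for the brightest probe set of each chromobox gene (left) and for CBX1 with the 6 bright genes nearest to it (right), with 1 array per group. CBX1 swings between the arrays with and without Pontin siRNA by a mean of 0.73, CBX5 by 0.25 and CBX2 by 0.22, while CBX3 and CBX7 go the other way, by -0.16 and -0.30.

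The bright genes whose pattern over the 4 arrays was most like that of CBX1 were ranked by the root mean square difference of centred log2 signals. They were AOPEP, an aminopeptidase gene (0.04), SNTB2, a syntrophin gene (0.07), MCF2L (0.08), NCAPG2, a condensin subunit gene (0.08), RDX, which encodes the membrane-cytoskeleton linker radixin (0.08), and FBLN1, which encodes the matrix protein fibulin (0.08). Their signals with Pontin siRNA were higher in both backgrounds, for AOPEP 1122 against 711.5 and 1109 against 697.5. Likeness to CBX1 selects for that direction, so it is given as a description. Another bright AOPEP probe set gave 0.10 and -0.12 with Pontin siRNA, while a second bright SNTB2 probe set gave 0.40 and 0.55 and a second bright RDX probe set 0.55 and 0.39. The other bright MCF2L probe sets gave 0.18 to 0.53 and those of FBLN1 0.27 to 0.52. Of the 7743 genes ranked, CBX5 came at 575, CBX2 at 596 and CBX6 at 2104. CBX3 came at 5887 and CBX7 at 6886.

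Genes that work with the chromobox proteins were listed, and no list gene was called with either knockdown. Of genes kept, 1.16% were called higher and 1.24% lower with Pontin siRNA, and 1.38% and 0.862% with p53 shRNA. Of the 7744 bright genes, the counts were 14 and 85, and 17 and 32. Nothing is read from the absence of calls. Above and below 0 in both pairs were 33.9% and 32.0% of genes kept with Pontin siRNA, and 30.6% and 32.2% with p53 shRNA. The list of HP1 partners and heterochromatin factors had 32 genes, all kept, 12 of them above 0 and 13 below 0 in both Pontin pairs (median 0.01). Their mean ratios with Pontin siRNA ran from -0.44 to 0.87. The highest was that of KMT5C, not a bright gene, at 1.27 and 0.47, from 63.4 against 26.2 and 70.7 against 51.0. TASOR, a subunit of the HUSH silencing complex, was at -0.35 and -0.53 with Pontin siRNA on 1 probe set and, on a second bright one, at -0.12 and -0.09. MIS12, a kinetochore gene whose product binds HP1, was at -0.37 and -0.50, from signals of 184.4 against 238.9 and 164.6 against 233.5. CHAF1B, a chromatin assembly factor subunit, was at 0.32 and 0.20 with p53 shRNA, and TRIM28, the corepressor that brings HP1 to zinc finger proteins, was at -0.25 and -0.26. TRIM28 had signals of 212.4 with p53 shRNA against 252.8, and of 209.6 against 251.8 in Pontin siRNA cells. With p53 shRNA 12 of the 32 were above 0 in both pairs and 13 below (median -0.01).

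Of the 25 PRC1 genes listed, 22 were kept, and RNF2, BMI1 and SCML1 were not among these. The median of the 22 was 0.07 with Pontin siRNA, with 9 above and 5 below 0 in both pairs. With p53 shRNA it was -0.02, with 3 above and 8 below. PCGF3, a RING finger partner of variant PRC1, was at -0.38 and -0.61 with Pontin siRNA, from 142.3 against 184.6 and 131.1 against 199.7, while of 4 dimmer probe sets kept 2 were above 0 in both pairs, 1 below in both and 1 opposite in sign. L3MBTL2, an MBT domain subunit gene, was at 0.25 and 0.42 (0.73 and -0.12 on a dimmer probe set), and AUTS2, a subunit gene of PRC1 in neurons, at 0.27 and 0.39. SCML2, a Polycomb gene with MBT repeats, was at 0.72 and -0.01, with its control array at 258.8 and the other arrays at 369.4 to 427.1.

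All 13 PRC2 genes were kept, with 7 above and 2 below 0 in both Pontin pairs and a median of 0.07. Their median was 0.02 with p53 shRNA, with 6 above and 4 below. EZH2, the catalytic subunit, was at 0.00 and -0.42 with Pontin siRNA, the first value being 0.0008, and at 0.27 and -0.15 with p53 shRNA. PHF1, a Polycomb-like subunit gene, was at 0.24 and 0.36 with p53 shRNA, and LCOR, whose locus also encodes a PRC2 accessory protein, at 0.29 and 0.20 but at -0.06 and -0.01 on a second bright probe set. MTF2, another Polycomb-like gene, was at -0.24 and -0.27 with p53 shRNA, though another bright probe set of it gave 0.14 and 0.16.

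Among other chromodomain genes, 20 of 21 were kept, with 11 above and 5 below 0 in both Pontin pairs and a median of 0.07. CHD7, a chromodomain helicase gene, was at 0.44 and 1.0 with Pontin siRNA, from 265.5 against 195.3 and 339.2 against 169.6, so on this probe set it passed the fold in p53 shRNA cells alone. A dimmer probe set gave 0.46 and 1.09, and another 0.59 and 0.36, past the fold in the other pair. The departure of 0.56 between the pairs was not tested. ARID4B, a subunit of a histone deacetylase complex, was at -0.25 and -0.45 (0.01 and -0.17 on a second bright probe set), and KAT5, the acetyltransferase of the TIP60 complex that also holds Pontin, at 0.18 and 0.17. Dimmer KAT5 probe sets gave 0.33 and -0.11, and 0.01 and -0.38, with Pontin siRNA. With p53 shRNA KAT5 was at 0.30 and 0.28, while the dimmer probe sets gave 0.27 and -0.17, and -0.03 and -0.42. CHD9 was at -0.44 and 0.00 with p53 shRNA (-0.0042 in the second pair) and on its other bright probe sets at -0.04 to -0.13. With p53 shRNA 8 of the 20 were above and 5 below 0 in both pairs (median 0.02).

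Of 12 histone H3 lysine demethylase genes 11 were kept, with 3 above and 1 below 0 in both Pontin pairs and a median of 0.02. With p53 shRNA 4 were above and 3 below, with a median of 0.09. KDM3A was at 0.44 and 0.20 with p53 shRNA, from 696.1 against 511.9 and 610.5 against 533.3. KDM6B was at 0.28 and 0.24, while of 4 dimmer probe sets kept 2 were below 0 in both p53 pairs, 1 above in both and 1 opposite in sign. KDM7A was at 0.24 and 0.57 with Pontin siRNA and at -0.26 and 0.28 on a dimmer probe set. KDM4B was at 0.03 and -0.60, but at -0.32 and 0.01 on its other bright probe set.

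**Figure D4:**
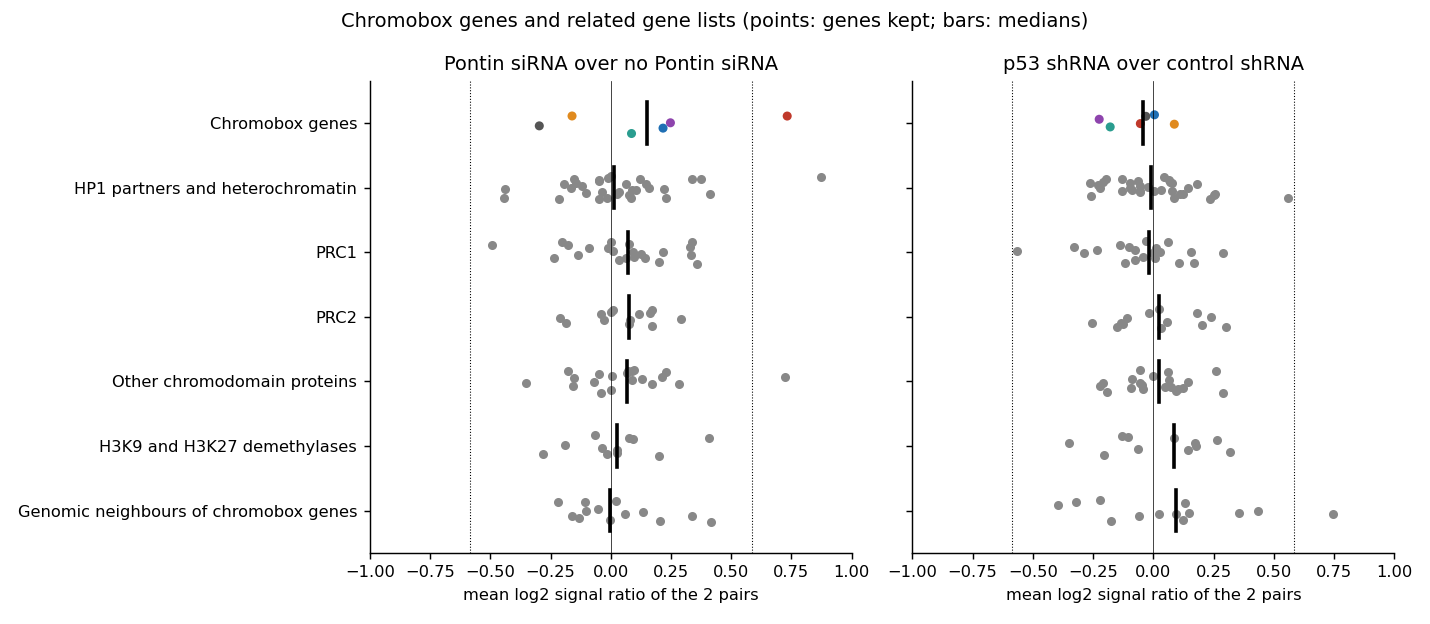
Mean log2 signal ratio of the 2 pairs for each knockdown, with 1 point per gene kept, black bars at list medians and dotted lines at 1.5-fold. Chromobox genes are coloured as in the plot of patterns, with CBX1 at 0.73 the highest of the 6 chromobox genes with Pontin siRNA, and CBX1 is the only gene shown that was called.

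By position, CBX3 and CBX5 each start beside an hnRNP gene, HNRNPA2B1 and HNRNPA1, which encode abundant RNA-binding proteins and are transcribed away from them. These neighbours were chosen by position and not by their values. HNRNPA2B1 was at -0.10 and 0.00 with Pontin siRNA (-0.0043 in the second pair), and CBX3 at -0.14 and -0.18. HNRNPA1 was at -0.05 and -0.16, whereas CBX5 was at 0.20 and 0.30 and SMUG1, on its other side, at 0.04 and 0.22. On the other side of CBX3, SNX10 was at -0.24 and -0.32. The dim neighbours of CBX7 and CBX6 were PDGFB, at 0.65 and 0.51, and NPTXR, at -0.79 and 0.53. The protein-coding neighbours of CBX1 were NFE2L1, a transcription factor gene, at -0.09 and -0.23, and SNX11, a sorting nexin gene, at -0.09 and -0.12. Neither neighbour was higher with Pontin siRNA. With p53 shRNA SNX11 was at -0.38 and -0.41, from 80.4 against 104.8 and 74.2 against 98.4.

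The list of 17 genes near chromobox loci had 13 kept, with a median of 0.00 with Pontin siRNA (-0.0045), 5 above and 5 below 0 in both pairs, and of 0.09 with p53 shRNA, 7 above and 3 below. COPZ1, a coatomer subunit gene near CBX5, was at 0.34 and 0.34 with Pontin siRNA on its brightest probe set and at 0.22 and -0.32 on another bright one. JOSD1, a deubiquitinase gene, was at -0.10 and -0.34. With p53 shRNA, NFE2L3, a transcription factor gene near CBX3, was at 0.36 and 0.51, and TBC1D16, a Rab GTPase-activating protein gene, at -0.34 and -0.30, with a dimmer probe set at 0.35 and -0.37.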

How the data were processed

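RNA of 4 cultures was measured on 1 array each, from 200 ng of total RNA per the labels' protocols. The deposited values are MAS5 signals, a linear intensity per probe set; the tool is named in the submitters' processing notes, without a version. Every deposited array has a mean of 150.0 once 2% of its values are trimmed at either end. Detection calls and scanner files were not used here, and 1 array per group sets the precision.

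Of 54675 probe sets, 41097 carried 1 symbol in the platform annotation, 41043 of them matched to RefSeq genes by Entrez identifier, 1801 carried several and 11777 none listed. Percentiles and normalization were taken without the 62 control probe sets of the platform. Signals were taken to log2 without further normalization, with 14 signals of 0 set to 0.1. Python 3.11.15 and pandas 2.3.3 were used, with limma 3.58.1 for quantile and cyclic loess normalization. The code for the calls was run on simulated data with changes well past the fold threshold. That run checks the code and does not bear on calls near the threshold.

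The members, lists and tests were chosen with earlier results of these data known. Named genes were the members, RUVBL1 and RUVBL2, the 6 bright genes nearest to CBX1 and called list genes. Up to 4 bright genes per list with the largest absolute mean ratio in either knockdown were named too. Immediate neighbours by position, cell type markers and KMT5C, which was not bright, stand beside them. The alternatives were 3 normalizations, a pseudocount of 16, no filter, the 75th percentile filter, the mean over probe sets, and leaving out probe sets of the _s_at and _x_at types.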

Additional observations from a re-analysis of the deposited data

Results flagged for a closer look

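The following probe sets had opposite signs in the 2 pairs of a knockdown, and the difference between pairs was not tested. Each value is the departure from additivity in log2. With Pontin siRNA these were CBX5 on 212126_at, at -0.0315, and CBX2 on 224138_at, at -1.82, a probe set below the filter on signal. With p53 shRNA they were CBX3 on 230998_at, at 0.28, CBX5 on 231862_at, at 0.33, and CBX5 on 234990_at, at -0.71. CBX2 had such signs with p53 shRNA on 226473_at, at 0.0465, on 240084_at, at -0.17, and on 215989_at, at -1.08, and CBX6 on 202047_s_at, at 0.30.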

How the results depend on the processing

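With 8 alternatives, 114 of 126 recomputed values kept their direction and their side of the fold threshold, or for counts their size. Every member's brightest probe set was bright, so the settings with no filter and with the 75th percentile filter return its main values. CBX1 and CBX7 have 1 probe set each, not of the _s_at or _x_at types. For them the mean over probe sets and leaving out those types also return the main values. The 114 therefore include values that were fixed. A count does not say which genes, and the 1 gene called with both knockdowns over the control was CBX7, lower, under median centring (-0.63), with CBX1 at 0.38. The exception for CBX1 was centring each array on its median, where its mean ratio with Pontin siRNA was 0.56 and 0 chromobox genes were called. Over the 8 alternatives that ratio ranged from 0.56 to 0.75, and those that could not change it left it at 0.73. With the mean over probe sets 1 gene, CBX2, departed from additivity by 1.5-fold. Signs turned for CBX3 with Pontin siRNA under the mean over probe sets (0.0572) and without _s_at and _x_at probe sets (0.0945). With p53 shRNA CBX3 turned under quantile normalization (-0.0020), median centring (-0.046), the mean over probe sets (-0.0823) and without those probe sets (-0.39). CBX2 with p53 shRNA turned under median centring (-0.13) and the mean over probe sets (-0.11), and CBX6 with Pontin siRNA under median centring (-0.0824). CBX6 had no value without _s_at probe sets. The causes were not tested. Median centring moved the median mean ratio of all genes kept to -0.16 with Pontin siRNA and -0.14 with p53 shRNA, and the sign changes under it are relative to that shift. Counts over all genes moved more. With Pontin siRNA the 140 called higher and 150 called lower became 75 and 188 under quantile normalization, 77 and 187 under cyclic loess, 55 and 246 under median centring, 34 and 104 with the pseudocount, 1186 and 736 with no filter, and 14 and 85 with the 75th percentile filter. The mean over probe sets gave 165 and 113. With p53 shRNA the 167 and 104 became 126 and 135, 127 and 132, 97 and 183, 55 and 56, 1188 and 719, and 17 and 32 under the same settings in that order. MAS5 signals near background, with no detection calls used, limit the dim probe sets. The labels give no replicate numbers to use as a block. The matched pairs were read by size and sign, and an additive model of the 4 arrays, which would leave 1 residual degree of freedom, was not fitted.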
